A study of Mus musculus with 6 samples.

Results

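The genes described are 45 genes of the peroxisome, of 18193 genes that had a probe set of their own on the array, and they were chosen by name as peroxisome biogenesis factors, membrane carriers and enzymes. All 45 were found. Each was read through the probe set with the highest mean over the 6 arrays, and 24 of the 45 had at least 1 further probe set. The set held 12 peroxins, 6 membrane transporters and channels and 27 enzymes. Liver RNA came from 3 B6.C3H-6T and 3 C57BL/6J mice, all of them females of 8 weeks on chow, with 1 mouse on each array. B6.C3H-6T is a congenic strain, bred to keep a stretch of C3H DNA on the C57BL/6J background, and the series was made to study its low circulating IGF-1. The donor segment is known to lie on chromosome 6, and its limits are not given in the sources used here, so that any difference belongs to the strain and not to a single gene.

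Peroxisomes are single-membrane organelles of hepatocytes that shorten very long and branched fatty acids, make ether lipids and bile acid intermediates, and break down urate, glycolate and amino acids with oxidases whose hydrogen peroxide is removed by catalase. Their proteins are made in the cytosol. Peroxins build the membrane, carry matrix proteins across it and control how the organelle divides. In rodent liver the nuclear receptor PPAR alpha raises many genes of peroxisomal beta-oxidation and Pex11a when fatty acids are abundant, as in fasting.

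None of the 45 genes passed at an adjusted p under 0.05 over all genes in limma, the threshold that 0.0715% of all genes passed. The smallest adjusted p was 0.148, for Pex11a. The counts that follow use an unadjusted p under 0.05 and describe the genes. At that level 11 of the 45 were lower in B6.C3H-6T (24.4%), against 5.8% of all genes. Another 5 were higher (11.1%), against 6.34% of all genes, and 29 were in neither group. The lower group was Pex11a, Pex3, Pex6, Pex19, Pex14, Pxmp4, Ech1, Eci2, Hsd17b4, Crat and Hao1. The higher group was Pipox, Uox, Dao, Pxmp2 and Agps. The values of the strains did not overlap at 12 genes that were lower in B6.C3H-6T, those 11 and Acox3, against 7.49% of all genes. They did not overlap at 6 that were higher, those 5 and Cat, against 10.3%. A lower mean in B6.C3H-6T was found in 30 of the 45 (66.7%), against 43.9% of all genes, and the median difference was -0.06 on the log2 scale, against 0.02 over all genes. The median level of the 45 genes was 10.19, against 6.94 over all genes. Among 11895 genes with a probe set brighter than the median probe set, 7.90% were lower and 6.59% higher at an unadjusted p under 0.05. The median difference of these brighter genes was 0.00. The shares of all genes given here and below are not matched for level.

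Counts differed between the roles, and that difference itself was not tested. Of 11 beta-oxidation genes 10 had a lower mean in B6.C3H-6T, against 43.9% of all genes. Of 5 genes for oxidases and catalase 4 had a higher mean, against 10203 of all 18193 genes. Without B6.C3H-6T replicate 2 these counts were again 10 and 4, and without C57BL/6J replicate 2 they were 9 and 4. Both checks were added after the data were seen. No direction of the role is read from only 5 genes for oxidases and catalase. The peroxins and the enzymes, taken as 2 wholes, had close medians, of -0.10 and -0.11, and the 6 membrane genes a median of 0.00. The share lower at an unadjusted p under 0.05 was 5 of 12 peroxins and 5 of 27 enzymes, against 5.8% of all genes. At that level 0 peroxins and 4 enzymes were higher, against 6.34% of all genes. No order of the shares is read from these counts: without B6.C3H-6T replicate 1 they were 4 of 12 peroxins and 10 of 27 enzymes lower. Over all 6 leave-outs, added after the data were seen, the enzymes had 2 lower (without C57BL/6J replicate 2) to 10 lower, and 1 higher (without B6.C3H-6T replicate 2 or C57BL/6J replicate 3) to 4 higher.

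**Figure D1:**
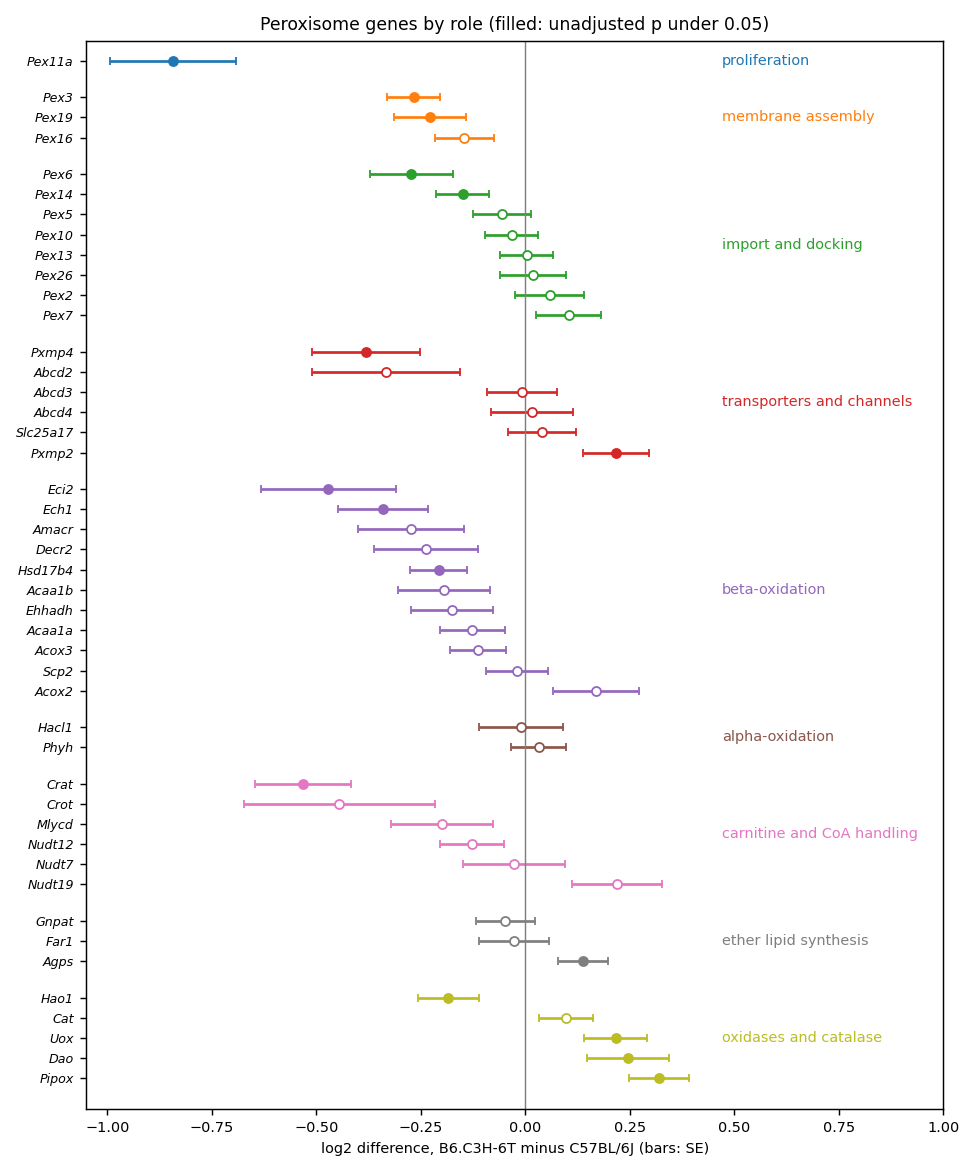
Log2 difference between B6.C3H-6T and C57BL/6J (horizontal axis, points with SE, 3 mice per strain) for each of the 45 genes, grouped by role. Filled points had an unadjusted p under 0.05. Pex11a lies farthest to the left at -0.84, beta-oxidation genes lie left of 0 in 10 of 11 cases, and 4 of the 5 oxidase and catalase genes lie to the right. Of all 18193 genes, 7990 had a lower mean in B6.C3H-6T and 10203 a higher one.

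The arrays were alike, with medians of 6.07 to 6.11 and correlations of 0.994 to 0.997 over all probe sets. On the first principal component, with 37.3% of the variance, B6.C3H-6T replicate 2 stood apart at 27.3. The other B6.C3H-6T mice lay at 11.8 and 2.29 and the C57BL/6J mice at -16.7 to -10.3. For Actb, a gauge of RNA quality, 3' exceeded 5' signal by 0.53 to 0.70 in B6.C3H-6T and by 0.59 to 0.61 in C57BL/6J. Hepatocyte markers were present on every array, with a summed level of 16.91 to 16.94 (log2) in B6.C3H-6T and 16.84 to 16.96 in C57BL/6J over 6 of 8 listed genes. Of 8 markers of Kupffer and other myeloid cells all had a lower mean in B6.C3H-6T, against 43.9% of all genes. Against 5.8% of all genes, 6 of the 8 markers were lower at an unadjusted p under 0.05. Their summed level was 12.95 to 13.20 in B6.C3H-6T and 13.25 to 13.48 in C57BL/6J, and its part in the lower peroxisome values was not tested. Each array read a whole piece of liver, so fewer cells of a type and less RNA per cell cannot be told apart.

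Pex11a, a membrane protein that elongates peroxisomes before they divide and is induced by PPAR alpha, differed most. It measured 9.67, 9.34 and 9.98 on the log2 scale in B6.C3H-6T replicates 1 to 3, against 10.33, 10.66 and 10.53 in C57BL/6J replicates 1 to 3. The highest B6.C3H-6T mouse lay below the lowest C57BL/6J mouse. The means were 9.66 ± 0.32 in B6.C3H-6T and 10.51 ± 0.17 in C57BL/6J (SD, n = 3 each), a difference of -0.84 ± 0.15 (SE) or 1.79 times lower in B6.C3H-6T (limma adjusted p = 0.148). Its second probe set was lower too, by a difference of -0.64 ± 0.12. Without B6.C3H-6T replicate 2 the difference was -0.68, the smallest when 1 array was left out, and the adjusted p lay between 0.0505 and 0.453.

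The peroxins of membrane assembly insert the membrane's own proteins, and all 3 had lower means in B6.C3H-6T, against 43.9% of all genes. Pex3, the membrane anchor at which new membrane proteins dock, measured 8.54, 8.46 and 8.52 in B6.C3H-6T, against 8.82, 8.80 and 8.71 in C57BL/6J. Mice of 1 strain lay close together and the strains did not overlap. The difference was -0.27 ± 0.06 (limma adjusted p = 0.226), and the second probe set of Pex3 gave -0.24 ± 0.09. Pex19, the cytosolic chaperone that brings membrane proteins to Pex3, measured 10.28, 10.01 and 10.22 in B6.C3H-6T, against 10.32, 10.49 and 10.38 in C57BL/6J. Its strains did not overlap, though B6.C3H-6T replicate 1 came close to C57BL/6J replicate 1. The difference was -0.23 ± 0.09 (adjusted p = 0.360), or -0.15 without B6.C3H-6T replicate 2, and both other probe sets of Pex19 were lower, by differences of -0.26 ± 0.09 and -0.18 ± 0.08. Pex16, which recruits Pex3, differed by -0.15 ± 0.07 with overlap, and its dimmer probe set by 0.05 ± 0.09.

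Import of matrix proteins uses receptors, a docking site, ubiquitin ligases and an ATPase that pulls the receptors back out. Pex6, 1 of the ATPase subunits, measured 10.37, 9.96 and 10.14 in B6.C3H-6T, against 10.44, 10.47 and 10.39 in C57BL/6J. Replicate 1 of B6.C3H-6T lay close under the C57BL/6J mice and replicate 2 far below them. The difference was -0.27 ± 0.10 (limma adjusted p = 0.354), and it was -0.17 without B6.C3H-6T replicate 2. Of the 4 other probe sets of Pex6, 1 was lower at an unadjusted p under 0.05, 2 more were lower and 1 was higher. Pex14, a subunit of the docking site, measured 9.69, 9.62 and 9.71 in B6.C3H-6T, against 9.79, 9.88 and 9.79 in C57BL/6J. This was a small gap without overlap, of -0.15 ± 0.06 (adjusted p = 0.398). Pex14 had an unadjusted p under 0.05 in 0 of 6 leave-outs, and differed by -0.12 without C57BL/6J replicate 2. The other 6 import peroxins overlapped between the strains. Pex13, which docks with Pex14, differed by 0.00 ± 0.06. The differences of Pex2 and Pex10, ubiquitin ligases that recycle the receptor, were 0.06 ± 0.08 and -0.03 ± 0.06. Pex7, the receptor for the N-terminal targeting signal, differed by 0.10 ± 0.08. Pex5, the receptor for the C-terminal targeting signal, and Pex26, the membrane anchor of the ATPase, are the members that lie on chromosome 6. They differed by -0.06 ± 0.07 and 0.02 ± 0.08, and whether they lie in the donor segment is not given in the sources used here.

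**Figure D2:**
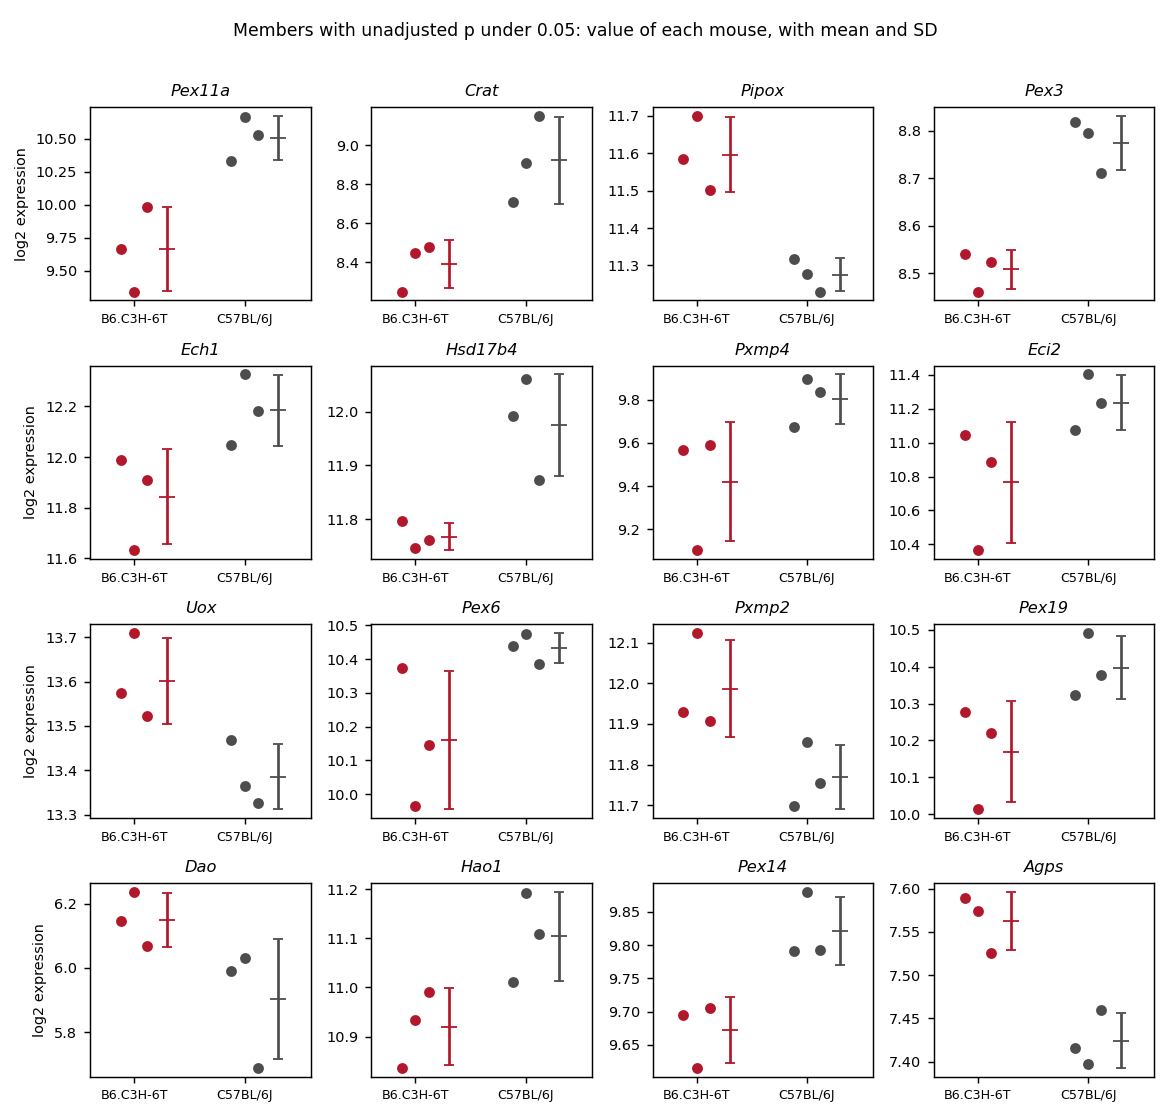
Log2 expression of each mouse (points), with the strain mean and SD beside them, for the 16 genes with an unadjusted p under 0.05, B6.C3H-6T left and C57BL/6J right, each panel on its own vertical scale. The strains do not overlap in any of the 16 panels. B6.C3H-6T replicate 2, the middle of its 3 points, was the lowest of all 6 mice at 9 of the 11 lower genes.

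Among membrane transporters and channels 3 means were lower and 3 higher. Pxmp4, a peroxisomal membrane protein, measured 9.57, 9.10 and 9.59 in B6.C3H-6T, against 9.68, 9.90 and 9.84 in C57BL/6J. Replicate 2 of B6.C3H-6T stood well below the other 2 mice of its strain. The difference was -0.38 ± 0.13 (limma adjusted p = 0.330), and its second probe set gave -0.48 ± 0.13. Without B6.C3H-6T replicate 2 the difference was -0.22. The 250 bases before the start of Pxmp4 in RefSeq (GRCm38.p6, chr2:154603674-154603923, minus strand) are shown because both probe sets were lower; capitals mark CCAAT and GGGCGG on either strand.
Pxmp4: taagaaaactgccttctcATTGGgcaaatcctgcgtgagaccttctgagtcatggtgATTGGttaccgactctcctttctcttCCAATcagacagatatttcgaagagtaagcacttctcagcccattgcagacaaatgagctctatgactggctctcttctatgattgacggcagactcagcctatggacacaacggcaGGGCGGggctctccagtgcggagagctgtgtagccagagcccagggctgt

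Pxmp2, a pore of the peroxisomal membrane for small solutes, measured 11.93, 12.12 and 11.91 in B6.C3H-6T, against 11.70, 11.86 and 11.75 in C57BL/6J. All 3 B6.C3H-6T mice were above all C57BL/6J mice, by a difference of 0.22 ± 0.08 (limma adjusted p = 0.354). The carriers of fatty acyl-CoA had values on both sides of 0. Abcd2, which imports very long and polyunsaturated chains, measured 8.91, 8.11 and 8.73 in B6.C3H-6T, against 8.79, 8.97 and 8.99 in C57BL/6J, so that only replicates 2 and 3 of B6.C3H-6T were below every C57BL/6J mouse. That probe set differed by -0.33 ± 0.18, and by -0.10 without replicate 2, while 2 others of Abcd2 did not overlap between the strains and differed by -0.52 ± 0.19 and -0.57 ± 0.22. Abcd3, which imports branched and dicarboxylic chains, differed by -0.01 ± 0.08. Abcd4, a family member known mainly from lysosomes, differed by 0.02 ± 0.10 and Slc25a17, a cofactor carrier, by 0.04 ± 0.08.

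Of the 11 beta-oxidation genes, 3 were lower at an unadjusted p under 0.05 and none was higher, against 5.8% and 6.34% of all genes. The count of 3 was 7 without B6.C3H-6T replicate 1 and 1 without C57BL/6J replicate 2. Among them are auxiliary enzymes for unsaturated chains. Eci2, an enoyl-CoA isomerase that shifts double bonds, measured 11.05, 10.36 and 10.89 in B6.C3H-6T, against 11.07, 11.40 and 11.23 in C57BL/6J. Replicate 1 of B6.C3H-6T was just below the lowest C57BL/6J mouse, and replicate 2 was far below both. The difference was -0.47 ± 0.16 (limma adjusted p = 0.333) and -0.27 without B6.C3H-6T replicate 2. Ech1, a dienoyl-CoA isomerase, measured 11.99, 11.63 and 11.91 in B6.C3H-6T, against 12.05, 12.33 and 12.18 in C57BL/6J. Its strains did not overlap, with a difference of -0.34 ± 0.11 (adjusted p = 0.303) and a range of -0.41 to -0.23 when 1 array was left out. Decr2, the dienoyl-CoA reductase, differed by -0.24 ± 0.12 and overlapped, and by -0.09 without B6.C3H-6T replicate 2. The bases before the start of Ech1 (GRCm38.p6, chr7:28825088-28825337, plus strand) are shown because Ech1 kept an unadjusted p under 0.05 without each array in turn; capitals mark GGGCGG on either strand.
Ech1: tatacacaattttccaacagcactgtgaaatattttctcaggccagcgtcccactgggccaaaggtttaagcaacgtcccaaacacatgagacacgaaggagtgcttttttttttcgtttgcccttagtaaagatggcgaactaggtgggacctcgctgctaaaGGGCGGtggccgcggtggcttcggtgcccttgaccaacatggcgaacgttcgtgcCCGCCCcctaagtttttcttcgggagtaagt

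Hsd17b4, the bifunctional enzyme that hydrates and dehydrogenates branched and bile acid intermediates, measured 11.80, 11.75 and 11.76 in B6.C3H-6T, against 11.99, 12.06 and 11.87 in C57BL/6J. The B6.C3H-6T mice lay close together and below all C57BL/6J mice. The difference was -0.21 ± 0.07 (limma adjusted p = 0.325), and the second probe set gave -0.11 ± 0.09. The other bifunctional enzyme, Ehhadh, a classical PPAR alpha target for straight chains, differed by -0.17 ± 0.10 with overlap, and by -0.11 without C57BL/6J replicate 2. Amacr, the racemase that prepares branched chains, differed by -0.27 ± 0.13 (adjusted p = 0.433), with 1 B6.C3H-6T mouse above 1 C57BL/6J mouse, and by -0.13 without B6.C3H-6T replicate 2. The first-step oxidase Acox3 differed by -0.11 ± 0.07. Acox2, the oxidase of bile acid intermediates, was the exception in direction, at 0.17 ± 0.10. It measured 10.82, 11.19 and 10.85 in B6.C3H-6T, against 10.83, 10.83 and 10.70 in C57BL/6J, and the difference was 0.05 without replicate 2 of B6.C3H-6T. The thiolases of the last step, Acaa1b and Acaa1a, differed by -0.20 ± 0.11 and -0.13 ± 0.08, and Acaa1b by -0.09 without B6.C3H-6T replicate 2. Probe sets paired with both thiolase genes, which cannot tell them apart, gave -0.23 ± 0.11 and -0.29 ± 0.15. Scp2, whose gene encodes a thiolase and a sterol carrier, differed by -0.02 ± 0.07. None of these genes passed over all genes.

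The enzymes that handle carnitine and CoA had a lower mean in 5 of 6 cases, against 43.9% of all genes. At an unadjusted p under 0.05, 1 of the 6 was lower, Crat alone, against 5.8% of all genes. Crat, which moves acetyl and other short groups onto carnitine, measured 8.25, 8.45 and 8.48 in B6.C3H-6T, against 8.71, 8.91 and 9.15 in C57BL/6J. The strains did not overlap and the gap did not come from replicate 2. The difference was -0.53 ± 0.11 (limma adjusted p = 0.203), from -0.64 to -0.42 without 1 array. The 2 other probe sets of Crat gave smaller values, of -0.09 ± 0.06 and -0.06 ± 0.07. The first of these was as bright as the one taken, with means of 8.65 and 8.66 over all arrays. Read through it, Crat would not be among the lower genes (limma unadjusted p = 0.177). The mean of all probe sets of Crat gave -0.23. Crot, which does the same for medium chains, measured 12.68, 11.64 and 12.54 in B6.C3H-6T, against 12.64, 12.78 and 12.78 in C57BL/6J. Here replicate 2 of B6.C3H-6T lay far below the rest, and the difference of -0.44 ± 0.23 was -0.12 without it. A dim second probe set of Crot gave 0.14 ± 0.09. Mlycd, which decarboxylates malonyl-CoA, differed by -0.20 ± 0.12, and by -0.07 without B6.C3H-6T replicate 2. The differences of Nudt12 and Nudt7, which split NADH and CoA, were -0.13 ± 0.08 and -0.03 ± 0.12. Nudt19, another CoA diphosphatase, ran the other way at 0.22 ± 0.11, and at 0.13 without B6.C3H-6T replicate 2. Its second probe set gave 0.19 ± 0.11.

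Alpha-oxidation, which removes 1 carbon from phytanic acid, differed little. Phyh, the hydroxylase, measured 13.18, 13.08 and 13.04 in B6.C3H-6T, against 13.04, 13.11 and 13.05 in C57BL/6J, a difference of 0.03 ± 0.07 (limma adjusted p = 0.880) with overlapping mice. Hacl1, the lyase of the next step, differed by -0.01 ± 0.10. In ether lipid synthesis, Agps, which forms the ether bond, measured 7.59, 7.57 and 7.53 in B6.C3H-6T, against 7.42, 7.40 and 7.46 in C57BL/6J. Its strains did not overlap, but the difference was small, at 0.14 ± 0.06 (adjusted p = 0.409), and its 2 other probe sets gave 0.07 ± 0.14 and -0.04 ± 0.08. Gnpat, the acyltransferase before it, differed by -0.05 ± 0.07. Far1, the reductase that makes the fatty alcohol, differed by -0.03 ± 0.08 on a probe set in the dimmer part of the array.

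Of the 5 genes for oxidases and catalase, 3 were higher at an unadjusted p under 0.05 and 1 was lower, against 6.34% and 5.8% of all genes. Only Pipox was higher at that level without B6.C3H-6T replicate 2 or without C57BL/6J replicate 3, and Hao1 was lower at it in 2 of 6 leave-outs. Pipox, which oxidises pipecolate and sarcosine, measured 11.59, 11.70 and 11.50 in B6.C3H-6T, against 11.32, 11.28 and 11.23 in C57BL/6J. Every B6.C3H-6T mouse exceeded every C57BL/6J mouse. The difference was 0.32 ± 0.07, or 1.25-fold (limma adjusted p = 0.220), and 0.27 to 0.37 when 1 array was left out. The bases before the start of Pipox (GRCm38.p6, chr11:77893873-77894122, minus strand) are shown because it was the higher gene of smallest p; no stretch is in capitals, since none of the motifs described below matched.
Pipox: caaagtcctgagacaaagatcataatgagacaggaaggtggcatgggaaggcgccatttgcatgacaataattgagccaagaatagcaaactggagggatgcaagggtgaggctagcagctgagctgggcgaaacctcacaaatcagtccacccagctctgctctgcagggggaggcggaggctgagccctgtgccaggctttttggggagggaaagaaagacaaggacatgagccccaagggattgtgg

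Uox, the urate oxidase that mice keep and humans have lost, measured 13.57, 13.71 and 13.52 in B6.C3H-6T, against 13.47, 13.36 and 13.33 in C57BL/6J. Its strains did not overlap, with a difference of 0.22 ± 0.07 (limma adjusted p = 0.333). Dao, the oxidase of D-amino acids, measured 6.15, 6.24 and 6.07 in B6.C3H-6T, against 5.99, 6.03 and 5.69 in C57BL/6J. That is a gap of 0.25 ± 0.10 (adjusted p = 0.382) on a dim probe set, and it was 0.14 without C57BL/6J replicate 3. Markers of kidney tubule, where Dao is abundant, had a summed level of 9.20 to 9.21 in B6.C3H-6T and 9.06 to 9.16 in C57BL/6J over 8 genes. They were dim, with a median level of 5.23. At an unadjusted p under 0.05, 1 of the 8 was higher, against 6.34% of all genes. Over all genes 10203 had a higher mean in B6.C3H-6T and 7990 a lower one. Markers of pancreas acinar cells, also dim, had 7.86 to 7.93 in B6.C3H-6T and 7.74 to 7.82 in C57BL/6J. The summed levels of adipocyte and cholangiocyte markers overlapped between the strains. The part of any of these in Dao was not tested. Hao1, the glycolate oxidase, went the other way, with 10.84, 10.93 and 10.99 in B6.C3H-6T, against 11.01, 11.19 and 11.11 in C57BL/6J. Its difference was -0.18 ± 0.07 (adjusted p = 0.383), and replicate 3 of B6.C3H-6T came close to C57BL/6J replicate 1. Catalase (Cat) measured 13.13, 13.11 and 13.08 in B6.C3H-6T, against 13.05, 13.04 and 12.93 in C57BL/6J. The strains did not overlap at either of its probe sets, with differences of 0.10 ± 0.06 and 0.07 ± 0.06, the first 0.06 without C57BL/6J replicate 3.

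**Figure D3:**
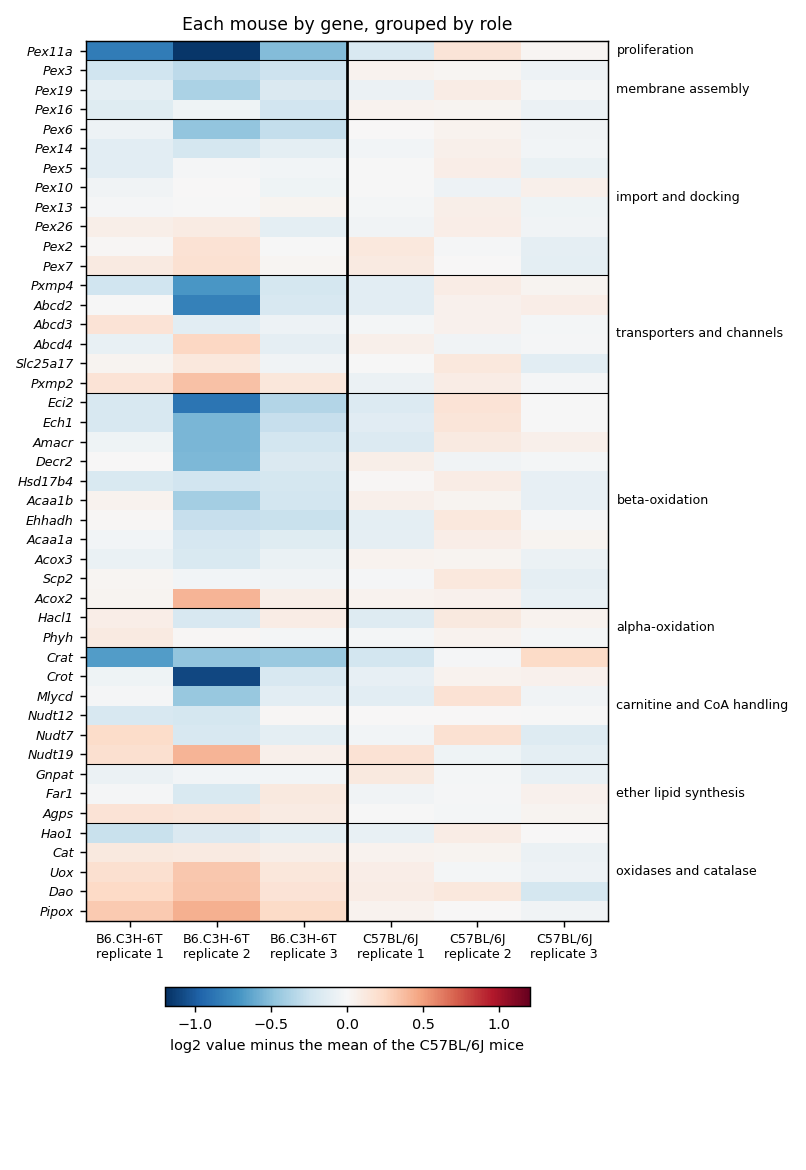
Log2 value of each mouse minus the mean of the 3 C57BL/6J mice, for the 45 genes grouped by role, with B6.C3H-6T left of the line and C57BL/6J right. B6.C3H-6T replicate 2 is the deepest blue in many beta-oxidation and carnitine genes and among the reddest at Pipox, Uox, Acox2 and Nudt19. The 12 genes that were lower without overlap, Pex3, Crat and Pex11a among them, are below 0 (blue) in all 3 B6.C3H-6T mice.

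How far 1 mouse carried the result differed by gene. Of the 30 genes with a lower mean in B6.C3H-6T, replicate 2 of that strain was the lowest of all 6 mice at 23. At 9 of the 11 lower genes C57BL/6J replicate 2 was the highest mouse. Without B6.C3H-6T replicate 2 the counts of the 45 at an unadjusted p under 0.05 were 8 lower and 1 higher, against 3.36% lower and 3.91% higher of all genes. Without C57BL/6J replicate 2 they were 4 lower and 4 higher, against 4.94% and 7.10% of all genes. Without C57BL/6J replicate 3 they were 8 lower and 1 higher, against 5.33% and 3.55%. The highest count of lower genes, 16 with 3 higher, came when B6.C3H-6T replicate 1 was left out, against 5.99% and 4.77%. The 4 lower genes without C57BL/6J replicate 2, and the single higher gene of the other fits, are thus near or under the shares of all genes. Lower peroxins numbered 3 without B6.C3H-6T replicate 2 (Pex11a, Pex3 and Pex16) and 2 without C57BL/6J replicate 2 (Pex11a and Pex3), in place of 5. Pex11a, Crat, Pipox, Pex3 and Ech1 kept an unadjusted p under 0.05 without each array in turn, the only 5 of the 16 to do so. After each array was centred on its median the counts were 13 lower and 3 higher, against 7.95% and 3.82% of all genes, so that 81.2% of the calls were lower, in place of 68.8%. Over all genes that share was 67.6% after centring, in place of 47.8%.

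Other probe sets of a gene read the same RNA samples at another stretch of the transcript. Of the 11 lower genes 7 had others, 12 in all, and 11 of these were lower, 6 at an unadjusted p under 0.05. Those 6 belonged to Pex11a, Pex3, Pex19 with 2, Pex6 and Pxmp4. The 11 genes were picked as lower in these same samples, so this agreement is not separate support. The 45 genes had 39 other probe sets in all. Outside the 11 genes, those lower at an unadjusted p under 0.05 belonged to Abcd2 with 2, Scp2 with 1 and Far1 with 1. Those higher at that level belonged to Scp2 and Abcd4, with 1 each. Over all genes at their brightest probe set, 5.8% were lower and 6.34% higher at that level. Among the 5 higher genes, Agps alone had others, and neither had an unadjusted p under 0.05. Pipox, Uox, Dao, Pxmp2, Ech1, Eci2, Hao1 and Pex14 each rest on 1 probe set.

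**Figure D4:**
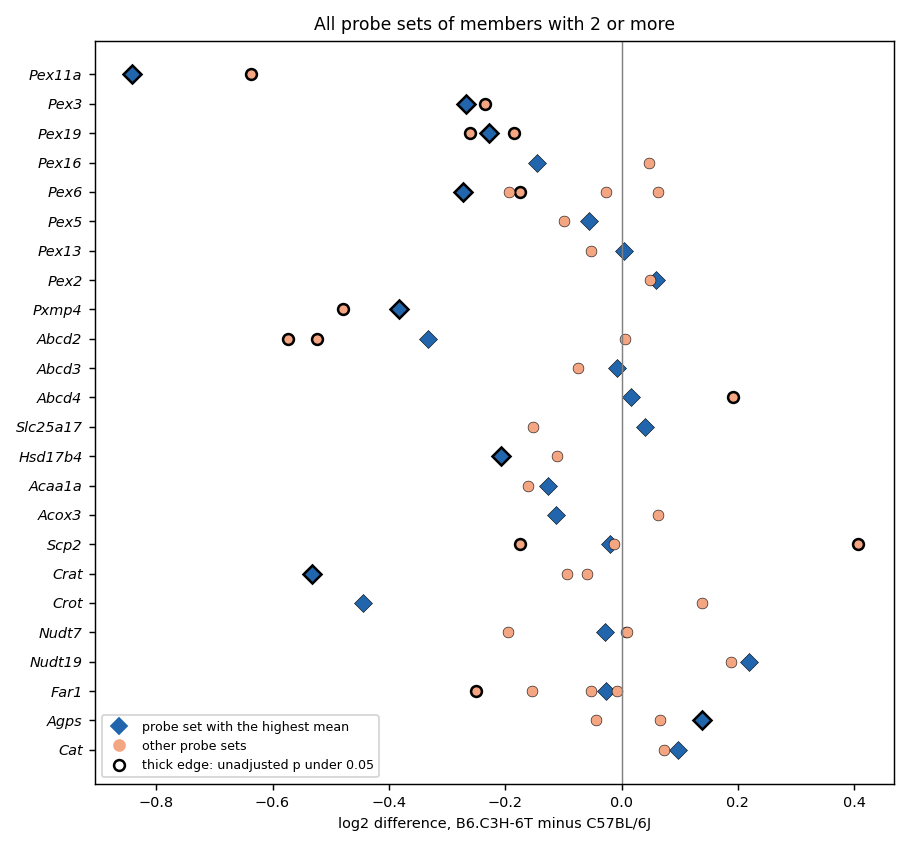
Log2 difference, B6.C3H-6T minus C57BL/6J, of every probe set of the 24 genes that have 2 or more. Diamonds are the probe sets with the highest mean, circles the others, and a thick edge marks an unadjusted p under 0.05. The probe sets of Pex11a, Pex3, Pex19 and Pxmp4 lie together left of 0, while those of Crat and Scp2 lie apart.

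The rest of the organelle was read from a list of 42 further peroxisomal genes, of which 33 had a probe set of their own and the others were not analysed here. None passed over all genes (smallest limma adjusted p = 0.282). At an unadjusted p under 0.05, 7 were lower in B6.C3H-6T (21.2%) and 5 higher (15.2%), against 5.8% and 6.34% of all genes, and the median difference was -0.01. The count of 7 was 1 without B6.C3H-6T replicate 2, 2 without C57BL/6J replicate 2, and 4 when replicate 3 of either strain was left out. The counts of 1 and 2 of 33 are near the shares of all genes in those fits, 3.36% and 4.94%. The lower ones included Acot4 and Acot3, acyl-CoA thioesterases, at -0.48 ± 0.14 and -0.70 ± 0.24, and Dhrs4, a carbonyl reductase, at -0.22 ± 0.07. The strains overlapped at Acot4 and Acot3 and did not overlap at Dhrs4. The proteases Tysnd1 and Lonp2, which process and clear matrix proteins, differed by -0.20 ± 0.07 and -0.21 ± 0.08. The higher ones included Pecr, a trans-enoyl-CoA reductase, at 0.23 ± 0.08, Tmem135 at 0.26 ± 0.10 and Baat, which conjugates bile acids, at 0.15 ± 0.06.

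The receptor and its other targets were read beside them. Ppara, the gene of PPAR alpha, measured 11.19, 10.50 and 10.96 in B6.C3H-6T, against 11.29, 11.42 and 11.25 in C57BL/6J. Its strains did not overlap, with a difference of -0.43 ± 0.15 (limma adjusted p = 0.333), and replicate 2 of B6.C3H-6T was again the lowest. Its partner Rxra differed by -0.08 ± 0.07 and the coactivator Ppargc1a by 0.23 ± 0.09. Of 8 targets outside the peroxisome 6 had a probe set of their own. All 6 had a lower mean in B6.C3H-6T, against 43.9% of all genes. At an unadjusted p under 0.05, 4 of the 6 were lower, against 5.8% of all genes. Pdk4 and Fabp1 lie on chromosome 6, and of the 4 targets elsewhere all had a lower mean, 3 at that level. The 4 lower targets were 6 without B6.C3H-6T replicate 1. The median of the 6 targets was -0.66, and -0.50 without B6.C3H-6T replicate 2. The median of the peroxisomal beta-oxidation genes was -0.20, and -0.09 without that mouse. Acot1 and Vnn1 differed by -1.34 ± 0.27 and -1.03 ± 0.19, Pdk4 by -0.98 ± 0.20, Cyp4a14 by -0.33 ± 0.10, Cpt1a by -0.32 ± 0.19 and Fabp1 by -0.19 ± 0.09, and none passed over all genes.

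The sequence before the start was available for 36 of the 45 genes, and 250 bases of each were searched on both strands. The half-site AGGTCA of nuclear receptors matched in 2 of 36 (5.56%), Cat and Scp2, against 13.8% of 27025 promoters. A direct repeat of AGGTCA with 1 base between the copies, the form that PPAR alpha binds with its partner, matched with up to 2 mismatches in 1 of 36, Cat, against 3.18% of all. The repeat contains the half-site, so these counts share letters. None of the 8 lower and 4 higher genes with a sequence held either. GGGCGG, the letters of the GC box, was in 22 of 36 (61.1%), against 32.9% of all, and CCAAT in 14 of 36 (38.9%), against 34.5%. The stretch before Cat (GRCm38.p6, chr2:103485154-103485403, minus strand), chosen after the search, is shown for its match; capitals mark AGGTCA, its repeat, CCAAT and GGGCGG on either strand.
Cat: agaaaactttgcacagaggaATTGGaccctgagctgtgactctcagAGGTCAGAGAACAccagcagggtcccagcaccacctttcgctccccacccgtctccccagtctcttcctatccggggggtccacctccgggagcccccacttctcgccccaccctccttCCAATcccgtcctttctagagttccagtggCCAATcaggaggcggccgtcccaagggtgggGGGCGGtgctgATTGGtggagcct

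The windows before Pex11a and Pex3 overlap the annotated neighbours Wdr93 and Adat2 and are not shown, but both were kept in the counts. A match is a match of letters only, and no match says only that these letters are not in this window.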

How the data were processed

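The deposited values are on the log2 scale, and per the submitters' processing notes the authors computed them by RMA in affy. Versions of RMA and affy and the array annotation are not given in the sources used here. Images were quantified with GCOS 1.2 per the labels. Labelling began from an oligo(dT) primer, so a probe set reads mainly the 3' end. Where the strains differ in sequence at a probe, its signal can differ without a difference in RNA. No counts or detection calls were used, and the number of arrays limits the precision.

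Of 45101 rows, 64 controls were left out and 45037 probe sets tested. The platform annotation paired 34945 with 1 gene, 932 with several and 9160 with none. Names were updated through RefSeq (GRCm38.p6). All probe sets entered 1 fit by lmFit and eBayes (limma 3.58.1, R 4.3.3) without covariates, B6.C3H-6T minus C57BL/6J. Each gene took its probe set of highest mean, and p-values were adjusted by Benjamini-Hochberg over 18193 genes, with 0.05 as the threshold. Summed marker levels are log2 of sums of linear values.

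Genes were named by role, with values of every mouse where the unadjusted p was under 0.05 or smallest in a role, up to 8 further peroxisomal genes by smallest p, and 11 fixed regulators and targets. The members and lists were chosen with earlier results of these data known. Alternatives were each array left out, brighter probe sets only, mean of all probe sets, no probe sets ending in _x_at or _s_at, arrays centred, and eBayes with trend and robust settings. The fit was tested on simulated data. Each mouse is a separate sample per the labels. Promoter sequences are those of RefSeq, first entry per gene.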

Additional observations from a re-analysis of the deposited data

How the results depend on the processing

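No member passed over all genes in the fit as reported or under any of the 11 alternatives. The members lower at an unadjusted p under 0.05, 11 of 45, ranged from 4 to 16 when 1 array was left out, and the higher ones, 5 of 45, from 1 to 5. With arrays centred on their median 3 were higher. The further peroxisomal genes that were lower, 7 of 33, ranged from 1 to 7 without 1 array and were 4 with the mean of all probe sets. The cause of these moves was not tested, beyond the fewer mice in each fit. The median of the peroxins (-0.13 to -0.06) and of the enzymes (-0.14 to -0.07) kept its direction under every alternative. Of 185 values of 17 named genes under alternatives, 184 kept their direction and stayed outside the threshold, and Phyh ranged from -0.0077 (without B6.C3H-6T replicate 1) to 0.061 without 1 array. No paired analysis was possible because no pedigree number in the titles recurs in both strains. With 3 mice per strain and RMA values without detection calls, small differences and dim probe sets such as those of Dao and Far1 are read with the least certainty.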

Other observations

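Among genes without a call at their brightest probe set, other probe sets of Abcd2, Scp2, Abcd4 and Far1 had an unadjusted p under 0.05, those of Abcd2 as given above. Scp2, whose transcripts encode a thiolase and a sterol carrier protein, had 4 probe sets. The 2 brightest gave -0.02 ± 0.07 and -0.01 ± 0.06, the third -0.17 ± 0.07 and the dimmest 0.41 ± 0.09, the last 2 without overlap between the strains and on opposite sides. Abcd4 gave 0.02 ± 0.10 on its brighter probe set and 0.19 ± 0.07 on its dimmer one, and 1 of the 4 other, dim probe sets of Far1 gave -0.25 ± 0.11 with overlap. The transcripts that these probe sets read were not analysed here.

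The median number of CG dinucleotides in the 250 bases before the start was 10.5 for 10 peroxins and 12 for 9 beta-oxidation genes, against 6 for all 27025 promoters. It was 4 for the 5 genes of oxidases and catalase.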
